A study of Mus musculus with 4 samples.

Results

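Potassium channel genes (symbols beginning Kcn) and voltage-gated calcium channel genes (symbols beginning Cacn) were read on arrays of the inferior vena cava, ligated or not, from CD39 knockout mice and wild-type controls. The genes were taken by symbol from the array's annotation, with 1 probe set per gene, the brightest by its mean over the 4 arrays. This gave 110 channel genes, 87 of potassium and 23 of calcium channels, of 18820 genes with a single symbol. Both genotypes were on a C57BL/6J background after at least 8 generations of back-breeding, and the mice were 8 to 10 weeks old. CD39, the product of Entpd1, sits in the cell membrane and degrades extracellular ATP and ADP. The 4 groups were wild type after sham surgery, in which the vein was only dissected, wild type 48 h after ligation below the renal veins, Cd39-null after sham surgery, and Cd39-null 48 h after ligation. The labels allow males or females and complete or partial ligation without saying which were used for these arrays, and give a knockout with no cell type restriction. Each group was 1 array of RNA pooled from 4 mice, so no difference between a pair could be checked in replicates and none carries a p-value.

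Potassium channels let potassium leave the cell and pull the membrane towards rest, while voltage-gated calcium channels open on depolarisation and admit the calcium that drives contraction in smooth muscle and transmitter release in nerve endings. A pore subunit forms the conduction path, and auxiliary subunits set its gating, its calcium sensitivity or its amount at the surface. In blood vessels the large-conductance calcium-activated channel of Kcnma1 and its beta1 subunit Kcnmb1, the ATP-sensitive channel of Kcnj8, voltage-gated Kv1 channels and the L-type calcium channel of Cacna1c together set smooth muscle tone, whereas the endothelium uses the small- and intermediate-conductance channels of Kcnn3 and Kcnn4.

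The start regions of 3 genes are shown because the results turn on them. Kcnmb1 and Kcnma1 encode the subunits of one channel and were lower in Cd39-null veins under both surgeries, and Kcnt2, a sodium-activated potassium channel, was lower after ligation in both genotypes. Each run holds the 250 bases before the annotated start, on the gene's strand, from RefSeq on build GRCm38.p6. Capitals mark the GC box GGGCGG on either strand, and overlapping matches run together. The windows lie at chr11:33962763-33963012 (plus strand) for Kcnmb1, chr14:24004206-24004455 (minus strand) for Kcnma1 and chr1:140245468-140245717 (plus strand) for Kcnt2.
Kcnmb1: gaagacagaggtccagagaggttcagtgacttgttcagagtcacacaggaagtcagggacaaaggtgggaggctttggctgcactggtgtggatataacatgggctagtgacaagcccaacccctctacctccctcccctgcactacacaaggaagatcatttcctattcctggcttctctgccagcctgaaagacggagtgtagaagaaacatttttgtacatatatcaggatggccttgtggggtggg
Kcnma1: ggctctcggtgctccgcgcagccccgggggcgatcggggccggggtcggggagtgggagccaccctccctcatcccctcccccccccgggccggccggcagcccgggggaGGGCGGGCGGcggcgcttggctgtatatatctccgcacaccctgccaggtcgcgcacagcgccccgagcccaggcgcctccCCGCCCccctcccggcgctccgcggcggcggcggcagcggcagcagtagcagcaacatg
Kcnt2: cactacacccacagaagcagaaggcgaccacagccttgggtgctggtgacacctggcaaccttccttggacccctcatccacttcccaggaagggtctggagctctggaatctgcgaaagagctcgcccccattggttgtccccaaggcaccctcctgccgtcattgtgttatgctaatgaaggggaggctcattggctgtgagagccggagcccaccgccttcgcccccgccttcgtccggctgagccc
The Kcnma1 window held 3 GC box matches in 79.2% G and C, and the windows of Kcnmb1 (50.8%) and Kcnt2 (61.6%) held 0. Over all start regions of this length 32.7% held a GC box, against 52 of the 115 windows of the 84 channel genes matched by symbol. The TATA box TATAAA, on either strand, was in 12.4% of all windows and in 3 of the channel gene windows, and the CArG box of serum response factor, by its usual consensus, in 1.47% and in 0. These are matches of letters within a fixed window and describe nothing about the factors.

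Most of the channel genes were dim in this tissue. As a stand-in for background, the 95th percentile of olfactory receptor probe sets lay at 2.94 (sham) and 2.66 (ligated) log2 in wild type and 2.97 (sham) and 2.68 (labelled ligated) in Cd39-null. Of the 110 channel genes 29 (26.4%) were above this level on all 4 arrays, against 52.9% of all genes, 22 were above it on 1 to 3 arrays and 59 on none. A filter on the mean over the arrays, at the 25th percentile of genes, kept 71 of them among 14115 genes. The other 39 were above the receptor level on no array, and 0 of them differed at least 2-fold in any pair. Members under this level on all 4 arrays, named here as examples, include the kidney channel Kcnj1, the pancreatic KATP pore Kcnj11, the heart auxiliary subunit Kcne1 and the skeletal muscle calcium channel Cacna1s.

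The labels were set against marker levels. All 12 endothelial markers and 11 of 13 smooth muscle markers were above the receptor level on every array. Entpd1 itself was at 7.11 (sham) and 6.17 (ligated) in wild type and 4.16 (sham) and 6.14 (labelled ligated) in Cd39-null. This last value goes against the label, so each direction that uses this array rests on the label alone. Platelet markers were also highest there, with a summed linear level of 2551 against 244 to 854 on the other arrays.

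**Figure D1:**
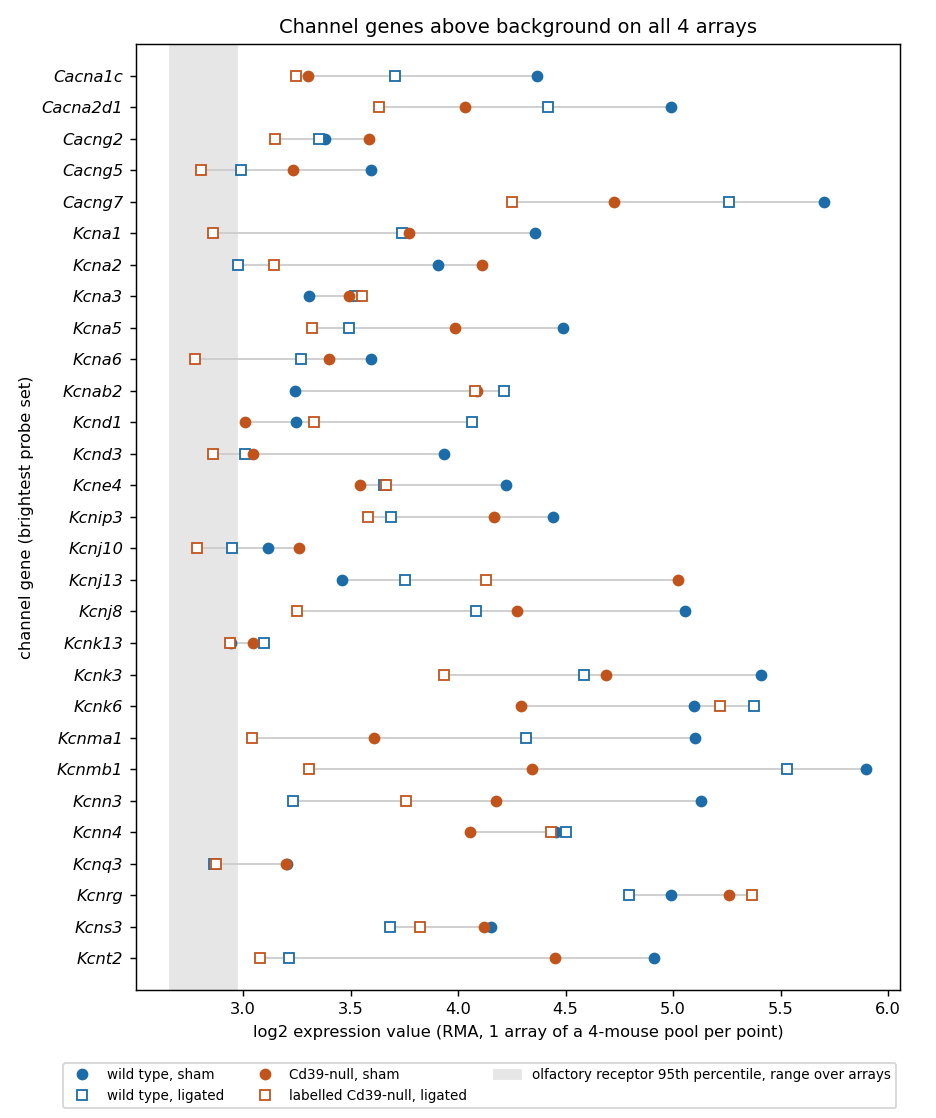
Log2 values (horizontal axis) of the 29 channel genes above the olfactory receptor level on all 4 arrays, 1 row per gene and 1 point per array; the grey band spans the receptor percentiles of the arrays and grey lines join a gene's lowest and highest value. Kcnmb1 runs from 5.89 in wild type, sham, to 3.31 on the array labelled Cd39-null, ligated, while Kcna3 stays between 3.31 and 3.55.

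After ligation 0 channel genes were at least 2-fold higher in either genotype, and a few were at least 2-fold lower. In wild type 4 of the 71 kept genes (5.63%) were at least 2-fold lower, namely Kcnab1, Kcnn3, Kcnt2 and Kcnip4, against a background of 3.63% lower and 6.60% higher over all genes kept. In the knockout 4 of 71 were lower, namely Kcnt2, Cacna1e, Kcnmb1 and Kcnj8, against 5.80% lower and 10.9% higher. Lower in both was 1, Kcnt2, against 1.45% of all genes, and higher in both were 0, against 3.63%. Among these 71 genes the counts of lower genes are thus close to the background, which depends on the filter for dim genes (below). The background has many genes higher and the channel genes none. The background was not matched to the channel genes for brightness, and some kept channel genes were above the receptor level on no array. Over all genes of that dim kind the highest ligation difference was 1.01 log2 in wild type and 0.98 in the knockout. Such genes could thus hardly be counted as higher. With the filter set at the olfactory receptor level instead, 0 of 38 kept channel genes were at least 2-fold higher in either genotype. Of the 11607 genes kept by that filter, 919 were at least 2-fold higher in wild type and 1505 in the knockout. The contrast was thus also present under that filter, while a background matched for brightness was not tested.

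Smaller differences pointed mostly down. The median of the 71 kept genes was -0.33 log2 in wild type and -0.28 in the knockout, while that of all genes kept was -0.01 and 0.03. Values were below 0 for 55 of 71 in wild type (77.5%, against 50.6% of all genes kept) and 58 of 71 in the knockout (81.7%, against 48.3%). The olfactory receptor genes had medians of -0.17 and -0.28 with 80.2% and 84.9% below 0, so the share of channel genes below 0 was no higher than that of these background genes. In the 29 channel genes above the receptor level on all arrays the medians were -0.47 and -0.43, against 0.05 and 0.12 for the 9954 genes of that kind, and 75.9% and 79.3% were below 0, against 46.2% and 42.7%. After quantile normalisation of the deposited values 52 of 72 and 51 of 72 kept channel genes were below 0, with medians of -0.26 and -0.16, and receptor medians of -0.08 and -0.10.

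**Figure D2:**
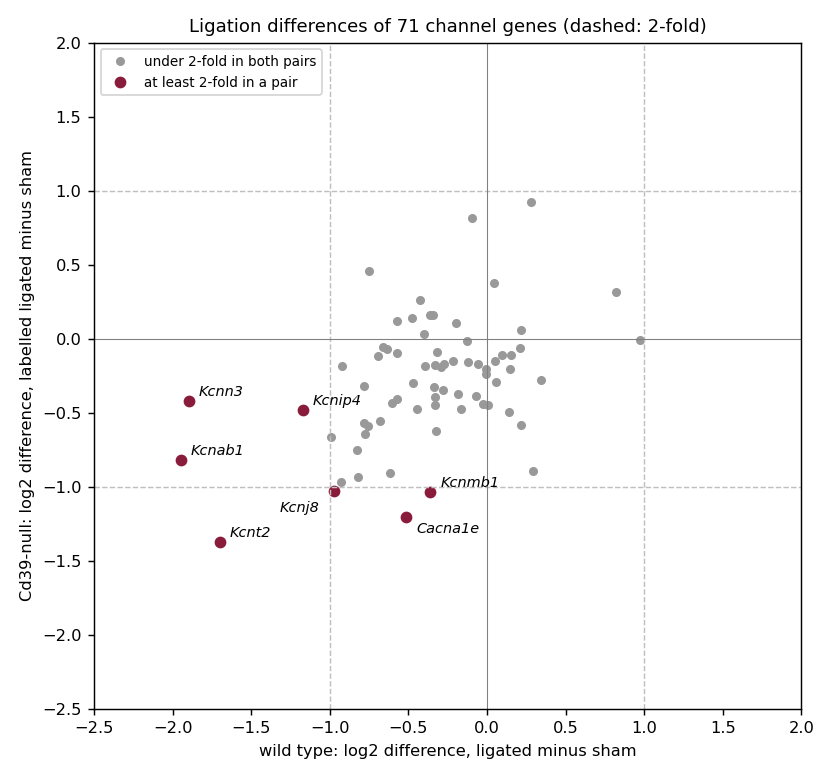
Log2 difference of ligated minus sham for the 71 kept channel genes in wild type (horizontal) and in Cd39-null (vertical, on the array labelled ligated), 1 point per gene, with dashed lines at 2-fold. Kcnt2 is the only point past 2-fold in both pairs (-1.70 and -1.37), and no point is past 2-fold on the higher side.

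Among the pores opened by intracellular ions, Kcnt2 was past 2-fold in both genotypes. Kcnt2 had values of 4.91 (sham) and 3.21 (ligated) in wild type and 4.45 (sham) and 3.08 (labelled ligated) in Cd39-null. Both sham arrays were well above both ligated arrays, by 1.70 and 1.37 log2, or 3.24-fold and 2.59-fold. Kcnt1, its close relative, was at 3.17, 2.49, 3.14 and 2.59 on the arrays in the same order, with the ligated arrays under the receptor level. Kcnn3, the small-conductance SK3 channel of endothelium, was at 5.13, 3.23, 4.18 and 3.76. Its wild-type difference of -1.89 was therefore 3.72-fold, and that in the knockout, -0.42, under 2-fold. Endothelial markers had medians of -1.24 and -0.02 in the same pairs, with 8 and 1 of 12 at least 2-fold lower, and summed linear levels of 2070, 1017, 1120 and 1241; their part in the Kcnn3 values was not tested. Kcnn4, the intermediate-conductance channel found in endothelium and leukocytes, stayed between 4.06 and 4.50 on the 4 arrays. In whole tissue, fewer cells of a type and less RNA per cell cannot be told apart.

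Among Kv pore and auxiliary subunits, the Kv1 pores Kcna1, Kcna2, Kcna5 and Kcna6 were lower after ligation in both genotypes by less than 2-fold, Kcna3 was slightly higher in both, and the beta subunit Kcnab1 was at least 2-fold lower in wild type. Kcnab1, a beta subunit that binds Kv1 pores, was at 5.35 (sham) and 3.41 (ligated) in wild type and 3.36 (sham) and 2.54 (labelled ligated) in Cd39-null. The wild-type sham array thus stood alone at the top, 1.94 above its ligated partner and 1.99 above the knockout sham array. The last array was under the receptor level, so the size of the knockout ligation difference, -0.82, is approximate. Kcnab2, another beta subunit, was instead lowest in wild type, sham (3.24), and close to level on the others (4.21, 4.09 and 4.08). Kcna5, the Kv1.5 pore of vascular muscle, was at 4.49, 3.49, 3.99 and 3.32, and Kcna2 at 3.91, 2.98, 4.11 and 3.14. For both genes each sham array was above each ligated array. Kcna1 was at 4.36, 3.74, 3.77 and 2.86, whereas Kcna3, the Kv1.3 pore known from lymphocytes, stayed between 3.31 and 3.55. The 9 kept Kv pore genes had median ligation differences of -0.34 and -0.39, with 0 past 2-fold.

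Kv4 channels, which carry the transient A-type current, went different ways in wild type. Kcnd3 was 0.92 log2 lower and Kcnd1 0.82 higher after ligation, and in the knockout the differences were -0.18 and 0.32. The Kv4-binding protein Kcnip4 was at 3.73 in wild type, sham, and 3.06 in Cd39-null, sham, and under the receptor level on both ligated arrays (2.56 and 2.57), so its differences of -1.17 and -0.48 are approximate. Kcnip3, a calcium-binding protein of the same family, had 4.44, 3.69, 4.17 and 3.58, with both sham arrays above both ligated arrays. Nerve markers were set beside these, and autonomic neuron markers had median ligation differences of -1.58 in wild type and -2.27 in the knockout. Of 11 kept autonomic neuron markers 8 were at least 2-fold lower in wild type and 8 in the knockout, 7 in both, with summed linear levels over the 12 measured of 654, 227, 512 and 134; Elavl4 was above the receptor level on no array. Of 6 Schwann cell and nerve markers 3 and 3 were lower, with summed levels of 414, 107, 265 and 102. Their part in the values of the neuronal channel genes was not tested.

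Inward rectifiers and leak channels set the resting potential. Kcnj8, the Kir6.1 pore of the vascular ATP-sensitive channel, was at 5.06 (sham) and 4.08 (ligated) in wild type and 4.28 (sham) and 3.25 (labelled ligated) in Cd39-null. It was lower after ligation by 0.97 and 1.03 log2 and lower in Cd39-null by 0.78 and 0.84. With 1 array per group, the gap between the ligation differences always equals that between the genotype differences. The partner of Kcnj8, Abcc9, the SUR2 subunit, was at 6.47, 5.96, 5.89 and 4.91. Kcnk3, the TASK-1 leak channel of smooth muscle and brown fat, had its arrays in the same order as Kcnj8, with 5.41, 4.58, 4.69 and 3.93. Adipocyte markers had a median of 1.69 in Cd39-null, sham, against wild type, sham, where Kcnk3 was 0.72 lower. Their median ligation differences were -0.18 in wild type and -2.45 in the knockout, beside -0.82 and -0.75 for Kcnk3. Smooth muscle markers had genotype medians of -1.36 in sham and -1.50 in ligated veins. The part of either list in the Kcnk3 values was not tested. Kcnk6, the TWIK-2 channel, was the kept gene with the highest knockout ligation difference, 0.93, from 4.29 to 5.22, and was at 5.10 and 5.37 in wild type. Macrophage and monocyte markers were at least 2-fold higher in 9 of 9 in wild type and 7 of 9 in the knockout, and their part in the Kcnk6 values was not tested.

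Kcnj13, Kcnj15 and Kcnj2 were at least 2-fold apart between the genotypes under 1 surgery and closer under the other. Kcnj13, the Kir7.1 rectifier of transporting epithelia, was at 3.46 (sham) and 3.75 (ligated) in wild type and 5.02 (sham) and 4.13 (labelled ligated) in Cd39-null. The knockout sham array was the highest, 1.56 log2 or 2.96-fold above wild type, sham. Adipocyte markers had summed linear levels of 827, 590, 3256 and 518 on the arrays in the same order. B cell markers were at 56.3, 36.2, 210 and 40.4, and T and NK cell markers at 66.4, 48.6, 118 and 60.9. The part of these lists in the Kcnj13 values was not tested. Kcnj15 was highest in wild type, sham, at 3.88, against 3.14, 2.82 and 3.28, and under the receptor level in Cd39-null, sham. Kcnj2, the Kir2.1 rectifier, was above the receptor level on the array labelled Cd39-null, ligated, alone (3.18, against 2.14 in wild type, ligated), so its 2-fold difference of 1.04 is approximate. Neutrophil, platelet and red cell markers were among those also highest on that array. Their summed linear levels in array order were 1220, 1075, 2603 and 4131, then 854, 568, 244 and 2551, then 54.3, 37.1, 40.0 and 176. These sums cover 9, 8 and 2 measured genes. Of the 2 red cell markers, 1 was at least 2-fold higher on that array than in wild type, ligated. The part of these 3 lists in the Kcnj2 values was not tested.

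The Cd39-null arrays had lower values of both subunits of the large-conductance calcium-activated channel, under sham surgery and under ligation. Kcnmb1, the beta1 subunit that raises the channel's calcium sensitivity in smooth muscle, was at 5.89 (sham) and 5.53 (ligated) in wild type and 4.34 (sham) and 3.31 (labelled ligated) in Cd39-null. Both wild-type arrays lay above both Cd39-null arrays, by 1.55 log2 (2.93-fold) in sham and 2.22 (4.67-fold) in ligated veins. Kcnma1, the pore, was at 5.10, 4.32, 3.61 and 3.04, with genotype differences of -1.49 (2.81-fold) and -1.27 (2.42-fold). Its wild-type values were likewise above both Cd39-null values. These 2 were the channel genes at least 2-fold lower in both surgeries, 2.82% of the 71 kept against 0.546% of all genes, and 0 were higher in both, against 0.269%. In sham veins 5 channel genes were at least 2-fold lower in Cd39-null (7.04%, against 3.54% of all genes) and 1 higher (1.41%, against 2.95%). The lower ones besides these were Kcnab1, Cacna1c and Kcnj15. In ligated veins 4 were lower (5.63%, against 2.66%), adding Cacng7 and Kcnh2, and 1 higher, against 3.61%. The genotype and ligation comparisons use the same 4 arrays, so a low value on 1 array enters both.

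**Figure D3:**
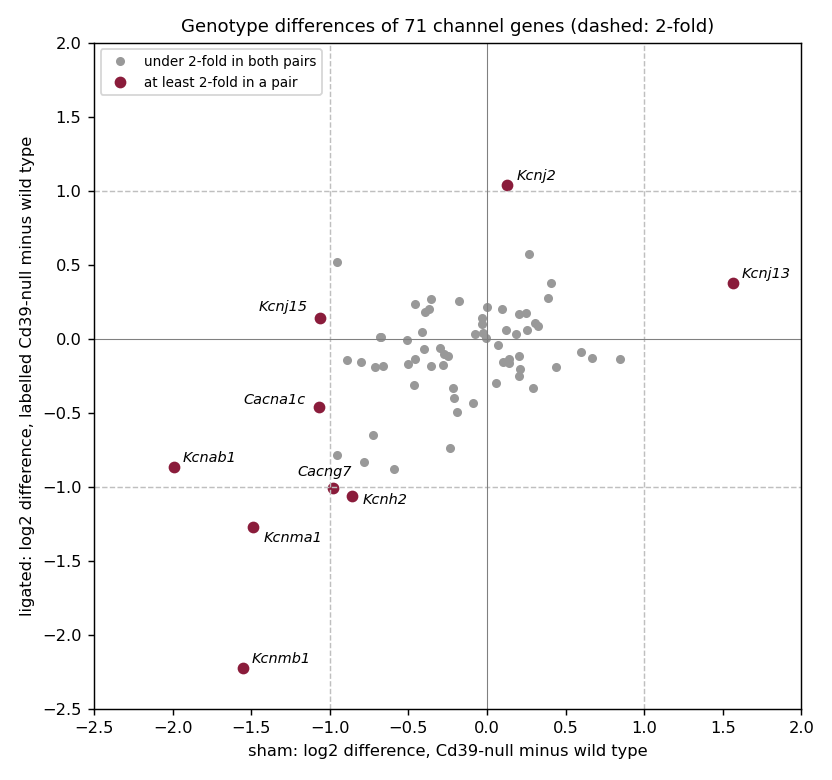
Log2 difference of Cd39-null minus wild type for the 71 kept channel genes in sham veins (horizontal) and in ligated veins (vertical), 1 point per gene, with dashed lines at 2-fold. Kcnmb1 (-1.55 and -2.22) and Kcnma1 (-1.49 and -1.27) are past 2-fold on the lower side in both; Kcnj13 stands apart on the right at 1.56.

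Smooth muscle markers differed between the genotypes in the same direction as these channel genes. In each surgery 10 of 13 were at least 2-fold lower in Cd39-null, with medians of -1.36 in sham and -1.50 in ligated veins. Their summed linear level was 3178 (sham) and 2215 (ligated) in wild type and 1395 (sham) and 780 (labelled ligated) in Cd39-null, and 0 were under the receptor level on all arrays. Myh11, the smooth muscle myosin, was at 9.46, 7.89, 7.79 and 5.54, and the muscle coactivator Myocd at 5.13, 4.39, 3.25 and 2.65. After ligation 3 of 13 markers in wild type and 6 of 13 in the knockout were at least 2-fold lower, with medians of -0.55 and -0.60. At least 2-fold higher were 0 in wild type and 1 in the knockout. Endothelial markers had genotype medians of -1.04 in sham and -0.08 in ligated veins, with 6 and 0 of 12 at least 2-fold lower. The part of smooth muscle and endothelial content in the channel values was not tested.

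**Figure D4:**
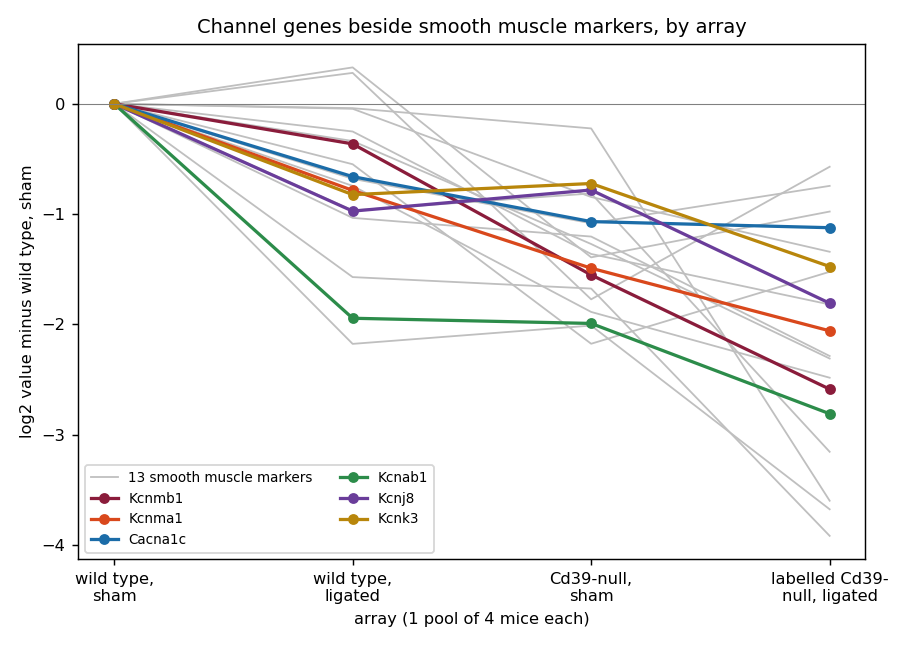
Log2 value minus that of wild type, sham (vertical axis), on each array for 6 channel genes picked after their values were seen (coloured points, joined by lines only to follow a gene) and for the 13 smooth muscle markers (grey lines). The Kcnmb1 and Kcnma1 lines lie within the spread of the markers, and Kcnab1, from 5.35 on the first array to 2.54 on the last, is the lowest of the 6 channel genes there.

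Of the 5 calcium channel genes above the receptor level on all 4 arrays, Cacna1c and Cacng7 were each at least 2-fold lower in Cd39-null under 1 surgery, and Cacna2d1, Cacng2 and Cacng5 under neither. Cacna1c, the L-type pore of smooth and cardiac muscle, was at 4.37 (sham) and 3.71 (ligated) in wild type and 3.30 (sham) and 3.24 (labelled ligated) in Cd39-null. It was 1.07 log2 (2.10-fold) lower in Cd39-null in sham veins and 0.46 lower in ligated veins. Cardiac muscle markers, 7 measured, were also highest in wild type, sham, with summed linear levels of 489, 86.0, 182 and 67.1 in array order. Myh7 and Nppa were above the receptor level on no array. The 5 kept cardiac markers had genotype medians of -0.28 in sham and 0.06 in ligated veins, with 1 at least 2-fold lower in each. Their part in the Cacna1c values was not tested. Cacna2d1, the alpha2delta subunit that brings the pore to the surface, was at 4.99, 4.42, 4.03 and 3.63, lower with each factor by under 2-fold. Cacng7, classed with gamma subunits and known for its action on glutamate receptors, was at 5.70, 5.26, 4.73 and 4.25, with genotype differences of -0.98 and -1.01. For Cacna1c, Cacna2d1 and Cacng7 both wild-type arrays were above both Cd39-null arrays. Cacng5 was at 3.59, 2.99, 3.23 and 2.80, and Cacng2 was 0.21 log2 higher in Cd39-null in sham veins and 0.21 lower in ligated veins. Cacna1e, the R-type pore of neurons, was above the receptor level on the sham arrays alone (3.06 and 3.66), and 2.55 and 2.45 on the ligated ones. The beta subunit Cacnb1 was above the receptor level on 1 array, the T-type pores Cacna1g and Cacna1h on none, and the T-type pore Cacna1i lay below it on all 4 and was removed by the filter.

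Kcnh2, the ERG pore, was higher on both wild-type arrays than on both Cd39-null arrays. It was at 3.33 and 3.43 in wild type and under the receptor level in Cd39-null (2.47 and 2.36), so its differences of -0.86 and -1.07 are approximate. Kcnrg, which holds back Kv channel assembly, was alike on the arrays (4.79 to 5.37). Other members above the receptor level throughout, such as Kcns3 (3.68 to 4.15), Kcne4 (3.54 to 4.22), Kcnq3 (2.87 to 3.20), Kcnj10 (2.78 to 3.26) and Cacng2 (3.15 to 3.59), differed by under 2-fold in every pair.

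Other genes of membrane potential and calcium handling were set beside the channels. Of 75 listed partners 67 were measured and 50 kept, with median ligation differences of -0.26 in wild type and -0.07 in the knockout. At least 2-fold lower were 6 and 3, and higher 1 and 4; lower in both were 3, namely Pln, Scn2a and Ano1. Pln, the brake on the calcium store pump of cardiac and smooth muscle, was at 4.73, 3.04, 3.83 and 2.74 on the arrays in the order used above. The sodium channel Scn2a was at 3.89, 2.82, 3.85 and 2.54, the last under the receptor level, so its knockout difference of -1.31 is approximate. Ano1, the calcium-activated chloride channel, was at 4.82, 3.78, 4.01 and 2.88. On the higher side, the plasma membrane calcium pump Atp2b1 was at 5.95, 6.65, 5.57 and 6.79. The mechanosensitive channel Piezo2 was at 3.42, 4.42, 2.72 and 3.42. Its value in Cd39-null, sham, was under the receptor level, so its knockout ligation difference is approximate. Atp2a3, a calcium store pump also abundant in platelets, was 1.04 log2 lower after ligation in wild type and 2.03 higher in the knockout. Of 8 measured platelet markers 5 were at least 2-fold lower in wild type, and all 8 at least 2-fold higher in the knockout. Their part in the Atp2a3 values was not tested, and the knockout differences rest on the array's label.

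The additive model of genotype and ligation, fitted with limma over the 14115 genes, has 1 residual degree of freedom and takes a difference between the genotypes' responses as error. Past an adjusted p of 0.05 were 0 of 71 channel genes for ligation and 0 for genotype, and 0% of all genes for either. With an unadjusted p under 0.05 in limma were 15 channel genes for ligation, all lower, against 21.0% of all genes in either direction and 7.79% lower. For genotype they were 11, of which 10 were lower, against 6.94% in either direction and 4.65% lower. The smallest limma adjusted p among channel genes was 0.0952 for ligation, of Kcnt2 (mean difference -1.53 ± 0.23 SE), and 0.667 for genotype. That last value was shared by Kcnmb1 (-1.89 ± 0.27 SE) and Kcnma1 (-1.38 ± 0.23 SE) among others. Kcnj8 had a limma adjusted p of 0.125 for ligation and 0.679 for genotype.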

How the data were processed

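Values were the authors' deposited log2 expression values per probe set, summarised by RMA with oligo, per the submitters' processing notes. Software versions and the genome build: not given in the sources used here. The method corrects background, makes the arrays' probe distributions alike and summarises probes, which would hide a global shift in RNA content. Each of the 4 arrays had RNA from a pool of 4 mice, per the series' design text. Of 35556 probe sets, 21218 had 1 symbol, 1881 several and 12457 none; 4 probe sets with several symbols, including a Kcn or Cacn symbol, were not used. Genes kept had a mean log2 of at least 2.29, the 25th percentile. Differences of at least 2-fold were counted, and the additive model was fitted with limma 3.58.1 in R 4.3.3 (lmFit, eBayes with a prior of 3.67 degrees of freedom, Benjamini-Hochberg) over all genes kept and tested on simulated data. Precision is limited by the number of arrays. Members, lists and tests were chosen with earlier results of these data known, and the count over both genotype pairs was added after seeing the values. Alternatives were quantile normalisation, cyclic loess, other filters on dim genes, the mean over a gene's probe sets and an intensity trend. Named were members at least 2-fold apart in a pair, members above background on all arrays, the brightest member of a role class, the largest ligation differences among partners, and Entpd1; Kcnt1, Cacna1h, Cacna1i, the dim examples Kcnj1, Kcnj11, Kcne1 and Cacna1s, and the markers Myh11 and Myocd were added after their values were seen.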

Additional observations from a re-analysis of the deposited data

Results flagged for a closer look

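Of the 32 kept channel genes above the olfactory receptor level on at least 3 arrays, 2 had ligation differences of opposite sign in the genotypes that lay at least 2-fold apart, a difference that was not tested. Kcnj13 had 0.29 log2 in wild type and -0.90 in the knockout, so the knockout minus wild-type value was -1.19. Kcnj15 had -0.75 and 0.45, a value of 1.20. Each rests on 1 pair of arrays per genotype, and 855 of 11049 genes at that level (7.74%) met the same criterion.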

How the results depend on the processing

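With quantile normalisation, and with cyclic loess, the channel genes at least 2-fold lower after ligation in both genotypes were 2 rather than 1, Kcnj8 joining Kcnt2. The count of channel genes higher in Cd39-null in ligated veins was 0 rather than 1 with quantile normalisation and with the filter at the olfactory receptor level, Kcnj2 falling under 2-fold in the first and out of the genes kept in the second. All other counts of channel genes stayed within 1.5 times their value under the alternatives run, but their shares did not. The channel genes kept numbered 38 with the filter at the receptor level and 110 with no filter. Of the 38, 5 were lower in Cd39-null in sham veins and 1 higher, against 4.08% and 3.26% of all genes kept. Those past an adjusted p of 0.05 in limma remained 0 for ligation and genotype. Counts with an unadjusted limma p under 0.05 ranged from 13 (of 38) to 20 (of 110) for ligation, against 18.9% to 22.7% of all genes kept. For genotype they ranged from 10 to 11, with 11 of the 38, against 6.46% to 7.27%. Of the 19 pairwise differences of at least 2-fold, 57 values under quantile normalisation, cyclic loess and the mean over probe sets included 0 with another sign and 3 under 2-fold. Both ligated arrays had lower values of dim genes, and the medians of the channel genes were nearer to 0 after cyclic loess (-0.23 in wild type and -0.14 in the knockout). No value has a replicate, and genes at the receptor level have differences of uncertain size.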
